A study of Homo sapiens with 16 samples.

Results

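Cell division needs a set of proteins that condense the chromosomes, build the spindle, hold the cell back until every chromosome is attached, and then split the cell. The genes described here are 43 such mitosis and spindle checkpoint genes, of the 20356 genes in the deposited count table. They were chosen by name, with earlier results of these data known, and followed across 4 groups of PC3, a human prostate cancer line established from a bone metastasis. The study asked what DDX4, an RNA helicase of germ cells, does in PC3 cells, and used cells labelled DDX4-null beside control cells, which the series text calls WT. Each genotype was grown as a monolayer culture and as xenograft tumors, human tumors in a host animal, with 4 RNA-seq libraries in each of the 4 groups and no other allele or agent named. The sources used here do not give how the DDX4-null cells were made, whether they are 1 clone, or the host strain. Nor do the labels state that replicates are separate cultures or animals, and all p-values below thus cover the spread among the sequenced libraries alone, which can be technical in part.

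A cell enters mitosis when CDK1 bound to a B-type cyclin is switched on by CDC25 phosphatases and helped by Polo-like and Aurora kinases. The spindle checkpoint then keeps the anaphase-promoting complex from using its activator CDC20 until all kinetochores, the protein plates on the centromeres, carry spindle fibers. Once it is released, separase cuts cohesin, the chromosomes part, and the ring and central spindle divide the cytoplasm. Most of these genes are transcribed in the G2 and M phases. Their promoters are known for CCAAT boxes, which the factor NF-Y binds, and for the cell cycle genes homology region (CHR, TTTGAA or TTTAAA), which the DREAM complex and the MYBL2 and FOXM1 machinery bind. Because transcription follows the phase, the RNA of this group is widely read as a proliferation signal in tumors.

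The promoter sequences of 10 members are shown because they carry these elements in genes named below, among them KIF20A with the largest monolayer change and KIF4A with the smallest. Each run is the last 110 bases before the RefSeq start in GRCh38.p14, written 5′ to 3′ on the gene strand. Capitals mark the box CCAAT on either strand, the element TTTGAA on either strand and its variant TTTAAA, which reads the same on both. On the other strand CCAAT reads ATTGG here.
PLK1, chr16:23678779-23678888 (+ strand): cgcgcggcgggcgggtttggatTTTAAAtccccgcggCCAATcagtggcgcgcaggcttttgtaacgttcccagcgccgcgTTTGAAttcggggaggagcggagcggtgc
CCNB1, chr5:69167040-69167149 (+ strand): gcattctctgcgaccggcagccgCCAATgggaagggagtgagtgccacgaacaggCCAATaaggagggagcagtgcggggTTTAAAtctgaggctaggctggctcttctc
CCNB2, chr15:59105036-59105145 (+ strand): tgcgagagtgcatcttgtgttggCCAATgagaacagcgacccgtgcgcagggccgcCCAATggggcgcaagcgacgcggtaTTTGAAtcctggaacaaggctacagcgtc
KIF20A, chr5:138179002-138179111 (+ strand): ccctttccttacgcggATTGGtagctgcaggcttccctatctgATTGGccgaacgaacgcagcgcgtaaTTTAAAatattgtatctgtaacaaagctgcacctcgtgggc
MKI67, chr10:128126424-128126533 (- strand): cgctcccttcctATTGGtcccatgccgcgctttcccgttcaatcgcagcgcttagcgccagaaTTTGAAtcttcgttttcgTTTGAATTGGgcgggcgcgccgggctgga
BUB1B, chr15:40160959-40161068 (+ strand): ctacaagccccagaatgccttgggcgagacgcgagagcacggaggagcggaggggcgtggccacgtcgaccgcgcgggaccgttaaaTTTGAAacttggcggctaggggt
PRC1, chr15:90994536-90994645 (- strand): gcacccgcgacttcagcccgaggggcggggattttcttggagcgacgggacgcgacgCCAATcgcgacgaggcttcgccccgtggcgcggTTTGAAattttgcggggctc
ESPL1, chr12:53268189-53268298 (+ strand): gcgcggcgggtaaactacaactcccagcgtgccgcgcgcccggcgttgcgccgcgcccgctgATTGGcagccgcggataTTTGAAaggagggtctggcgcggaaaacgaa
CDC20, chr1:43358871-43358980 (+ strand): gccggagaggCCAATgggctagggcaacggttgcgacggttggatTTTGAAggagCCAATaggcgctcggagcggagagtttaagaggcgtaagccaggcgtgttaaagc
KIF4A, chrX:70289994-70290103 (+ strand): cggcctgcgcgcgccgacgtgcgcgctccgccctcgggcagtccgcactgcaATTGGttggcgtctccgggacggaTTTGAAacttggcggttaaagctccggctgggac

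PLK1, CCNB2, KIF4A and PRC1 each have a CCAAT box or its reverse followed by TTTGAA close to the start. The first base of TTTGAA lies at -29 in PLK1 and CCNB2, -34 in KIF4A and -20 in PRC1, counting the start as 0. CCNB1 and KIF20A carry TTTAAA in that place, at -30 and -41, each behind a pair of CCAAT boxes. BUB1B has TTTGAA at -23 and no CCAAT in its promoter window. MKI67 has TTTGAA at -47 and -29, and the later of these overlaps a reverse CCAAT, so that both are read from the run TTTGAATTGG. CDC20 and KIF4A, whose RNA did not pass the test between the monolayers, carry both elements as well. In CDC20 they are placed otherwise than in PLK1, with TTTGAA at -65 between CCAAT boxes at -100 and -55.

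The RefSeq table held promoters for 37 of the 43 members, each 250 bases before to 50 after the first listed start. It did not list AURKA, TPX2, BIRC5, TTK, UBE2C and RACGAP1. Both strands were searched, and a base could belong to more than 1 motif. CCAAT stood in 30 of the 37 promoters (81.1%), and in 35.7% of the 27305 promoters of that length. TTTGAA stood in 26 of 37 (70.3%) against 15.4% of all promoters, and TTTAAA in 12 (32.4%) against 12.3%. Both CCAAT and TTTGAA were found in 22 members (59.5%) and in 6.08% of all promoters. CDC25C, CENPE and KIF2C had neither CCAAT nor TTTGAA in this window, which says only that these letters are not there. TTTAAA was found 3 times in CENPE and 1 time in KIF2C, and not in CDC25C.

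Position was also shared, in windows chosen after the positions had been seen. Of 35 TTTGAA matches in the 37 promoters, 18 began in the last 50 bases before the start, 15 of them on the gene strand. Of 64 CCAAT matches, 36 began at -100 to -51 from the start, on the gene strand in 19 and on the other in 17. TTTGAA on the gene strand within the last 60 bases was present in 13 members (35.1%) against 1.39% of all promoters. At least 2 CCAAT boxes were found in 18 members (48.6%) and in 11.3% of all. Pairs on 1 strand with starts over 30 and up to 34 bases apart occurred in CCNB1, CCNB2, NEK2, SPC25 and HMMR, or 13.5% of members, against 1.05% of all promoters.

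**Figure D1:**
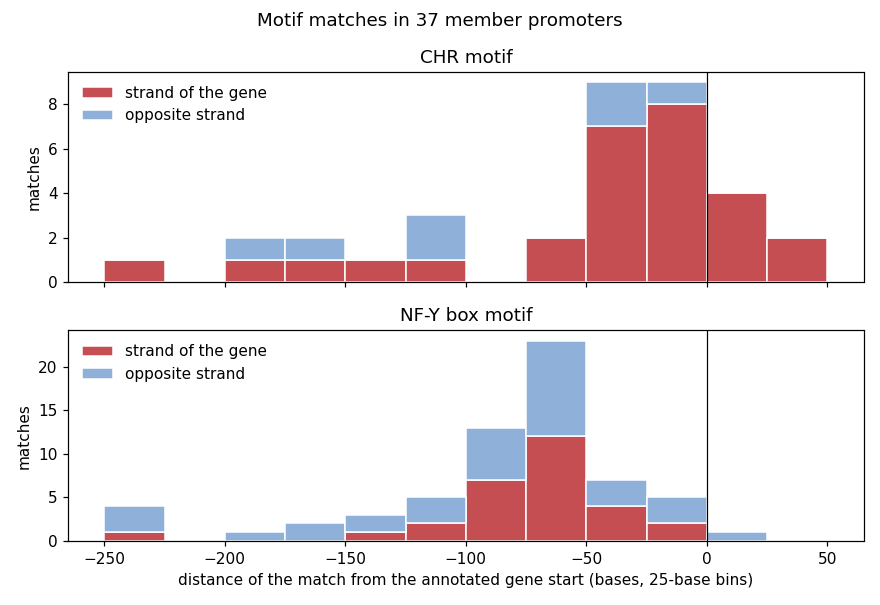
Number of motif matches (vertical axis) by distance from the gene start in bases (horizontal axis, 25-base bins) in the 37 member promoters, for TTTGAA (upper panel, CHR motif) and CCAAT (lower panel, NF-Y box motif), stacked by strand. CCAAT matches gather at -100 to -51, with 36 of 64, and TTTGAA matches in the last 50 bases, with 18 of 35.

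The 16 libraries held 12204254 to 25443952 counts, and levels below are counts per 1000000 (CPM) after TMM scaling, listed for libraries 1 to 4 of a group. All 43 members passed the filter on low counts in each of the 5 comparisons made, and the lowest count of any member in any library was 30, for SPC25. DDX4 itself had 0 to 5 counts per library, so it could not check the labels (exact two-sided permutation p = 0.543 in monolayers and 0.971 in tumors, where 0.0286 is the smallest the design allows). The epithelial markers (6 genes) summed to 859 to 983 CPM in control monolayers, 1443 to 1727 in DDX4-null monolayers and 1188 to 1615 in tumors. Of the prostate luminal markers (5 genes), KLK2 was at 0 in all 16 libraries and KLK3 at 0 in control monolayers and DDX4-null tumors, and their sum stayed at 8.02 to 37.1 CPM. Markers of fibroblasts, endothelium and pericytes, leukocytes and skeletal muscle, 28 genes together, summed to 69.5 to 77.99 CPM in control monolayers, 127 to 143 CPM in DDX4-null monolayers and 1775 to 2335 CPM in tumors, except DDX4-null tumor 1 at 11199 CPM. That library stood apart, and the member counts that use it are given without it as well.

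DDX4-null monolayers had more RNA of nearly the whole mitotic gene set than control monolayers. Of the 43 members, 41 rose and none fell, at an adjusted p under 0.05 in the quasi-likelihood F test of edgeR, where 35.0% of the 13006 genes tested rose and 32.3% fell. The median log2 change of the members was 0.83, and that of all genes 0.02. KIF20A, a motor of the central spindle, rose most, and KIF4A, a motor that coats chromosome arms, had the smallest difference and did not pass. DESeq2 also called 41 higher and 0 lower, and none of the 43 differences was below 0. At least 2-fold rises were found for 19 members, against 13.0% of all genes, and in 39 members every DDX4-null library lay above every control library, against 31.0% of all genes. The members together made up 0.193% to 0.213% of the counts of control monolayers and 0.403% to 0.442% of those of DDX4-null monolayers. The epithelial and stromal marker sums above were also higher in DDX4-null monolayers, without overlap, but not every marker rose. Of the epithelial markers, KRT8, KRT18, KRT19 and EPCAM were higher without overlap. CDH1 was lower, at 12.2 to 16.6 CPM in control and 6.85 to 7.25 CPM in DDX4-null monolayers. Of the stromal lists, the fibroblast sum and the endothelial and pericyte sum were higher without overlap. The leukocyte and skeletal muscle sums overlapped between the genotypes. The part of these markers in the rise of the members was not tested. In RNA from whole cultures, a larger share of cells in division and more RNA per dividing cell cannot be told apart.

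**Figure D2:**
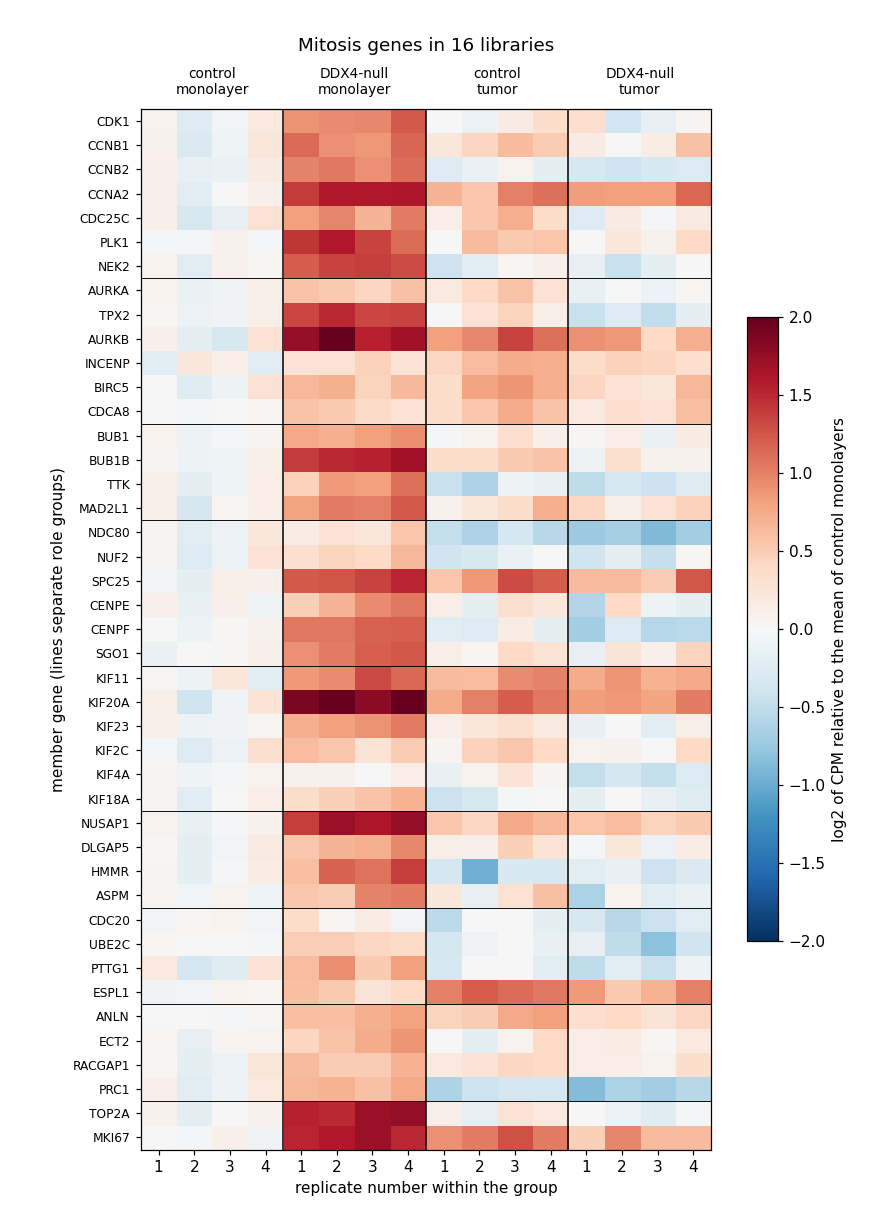
Each row is a member gene, grouped by role, and each column a library. Color gives the log2 ratio of the CPM to that gene's mean over the 4 control monolayers. The DDX4-null monolayers have the highest mean of the 4 groups in all but 4 members (BIRC5, CDCA8, ESPL1 and INCENP).

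The kinases and cyclins that start mitosis rose together, 7 of 7, with log2 changes of 0.88 to 1.55. CDK1, the kinase that drives entry into mitosis, was at 93.6, 74.7, 86.4 and 103 CPM in control and 167, 173, 175 and 208 CPM in DDX4-null monolayers. CCNB1, its cyclin B partner, was at 75.5, 58.3, 67.5 and 84.3 CPM and 157, 135, 129.9 and 161 CPM in the same order. For both genes every DDX4-null library was above every control library. CDK1 rose by a log2 change of 1.01 (SE 0.11, adjusted p = 1.01e-07) and CCNB1 by 1.03 (SE 0.11, adjusted p = 1.77e-07). CCNA2, the cyclin A of S and G2 phase, moved most in this group. It read 13.97, 11.1, 12.9 and 13.9 CPM in control and 34.2, 39.3, 39.3 and 39.7 CPM in DDX4-null monolayers, a log2 change of 1.55 (SE 0.11, adjusted p = 2.84e-10). PLK1, the Polo-like kinase that activates CDC25C and builds spindle poles, read 35.5, 35.1, 37.9 and 35.1 CPM and 96.6, 109, 91.99 and 78.3 CPM, with no overlap and a change of 1.39 (SE 0.11, adjusted p = 1.13e-09). The phosphatase CDC25C moved least, from 12.6, 9.30, 10.4 and 14.4 CPM to 20.6, 22.997, 18.8 and 23.6 CPM, and still without overlap, with a change of 0.88 (SE 0.13, adjusted p = 1.01e-05). CCNB2, a second cyclin B, and NEK2, a kinase that separates centrosomes, rose by 1.02 and 1.31.

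Among the Aurora kinases and the chromosomal passenger complex, which corrects wrong attachments and later guides cytokinesis, 6 of 6 rose, but unequally. AURKB, the kinase of that complex, was at 9.33, 7.66, 6.996 and 10.8 CPM in control and 29.5, 35.8, 25.7 and 27.9 CPM in DDX4-null monolayers, a log2 change of 1.77 (SE 0.14, adjusted p = 1.9e-09). INCENP, the scaffold that AURKB sits on, was at 28.1, 38.5, 36.2 and 28.5 CPM and 40.1, 40.5, 45.2 and 39.8 CPM. Its groups stood apart by little, and its change of 0.33 (SE 0.12, adjusted p = 0.0159) lost its call without control monolayer 1 or without DDX4-null monolayer 3. The other passengers, BIRC5 (survivin) and CDCA8 (borealin), rose by 0.62 and 0.44. Relative to the median change of all tested genes on its chromosome, INCENP read 0.60 and BIRC5 0.37. TPX2, which activates Aurora A on spindle microtubules, read 113, 102, 105 and 119 CPM and 277, 313, 277 and 279 CPM, a change of 1.38 (SE 0.09, adjusted p = 1.44e-10). AURKA, the Aurora kinase of spindle poles, read 67.3, 58.1, 61.3 and 69.5 CPM and 94.7, 91.6, 86.7 and 96.1 CPM, a smaller change of 0.53 (SE 0.09, adjusted p = 6.01e-05). Reads of AURKA can be shared with its processed pseudogenes. Those of BIRC5 can be shared with its antisense neighbor, because the strand setting of the counting is not given.

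The 4 checkpoint genes all rose. BUB1B, whose product BubR1 binds and restrains CDC20, was at 49.98, 44.7, 45.1 and 51.8 CPM in control and 126, 137, 139 and 154 CPM in DDX4-null monolayers, a log2 change of 1.54 (SE 0.10, adjusted p = 5.96e-11). BUB1, the kinase that recruits checkpoint proteins to kinetochores, was at 58.4, 51.9, 53.8 and 57.9 CPM and 93.9, 90.99, 98.5 and 106 CPM, the smallest change of the 4 at 0.81 (SE 0.09, adjusted p = 3.03e-07). In both genes the groups did not overlap. TTK, the kinase that starts checkpoint signaling, rose by 0.83, and MAD2L1, which forms the inhibitory complex with CDC20, by 1.02.

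At the kinetochore, 6 of 6 rose. SPC25 and NDC80, both of the NDC80 complex, which grips the microtubule, had the largest and the smallest change, but not relative to chromosome medians, where NDC80 read 0.69, NUF2 0.57, SPC25 1.14 and CENPF 1.23. SPC25, one of its inner subunits and the least abundant member, read 2.32, 2.13, 2.63 and 2.59 CPM in control and 5.65, 5.76, 6.17 and 6.91 CPM in DDX4-null monolayers, a change of 1.34 (SE 0.16, adjusted p = 3.81e-07). NDC80, the microtubule-binding subunit of the same complex, read 43.8, 36.4, 38.8 and 48.7 CPM and 46.6, 51.2, 49.1 and 61.8 CPM. One control library lay above the lowest DDX4-null library, and the change was 0.32 (SE 0.11, adjusted p = 0.0194), a call lost when control monolayer 2 or 3 or DDX4-null monolayer 4 was left out. NUF2, the direct partner of NDC80, rose by 0.46. CENPF and CENPE, large proteins that link kinetochores to microtubules and motors, rose by 1.12 and 0.80, and SGO1, which shields centromeric cohesin, by 1.10.

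Of the 6 kinesins, 5 rose. KIF20A, which carries the passenger complex to the central spindle, was at 24.4, 17.03, 21.4 and 27.3 CPM in control and 83.1, 94.2, 77.8 and 89.3 CPM in DDX4-null monolayers. The lowest DDX4-null library was far above the highest control library, and the change was 1.93 (SE 0.12, adjusted p = 7.11e-11), or 3.82-fold. KIF4A was at 51.04, 46.6, 47.8 and 51.9 CPM and 52.4, 52.2, 49.2 and 54.1 CPM, overlapping ranges, with a change of 0.08 (95% interval -0.12 to 0.27, adjusted p = 0.483). KIF4A lies on chromosome X, whose 410 tested genes had a median change of -0.47 in this comparison. With each gene's change taken relative to the median of its chromosome, KIF4A read 0.54 (adjusted p = 3.72e-05) and passed the test. Its reads can also be shared with the near-identical KIF4B. KIF11, which pushes spindle poles apart, rose by 1.08, KIF23, of the central spindle, by 0.87, KIF2C, which takes microtubules apart at centromeres, by 0.49, and KIF18A, which sets fiber length, by 0.53 (0.80 relative to its chromosome median).

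All 4 spindle microtubule proteins rose. NUSAP1, which bundles microtubules, read 53.4, 45.9, 50.1 and 54.3 CPM in control and 133, 168, 157 and 173 CPM in DDX4-null monolayers, a change of 1.63 (SE 0.10, adjusted p = 5.96e-11). DLGAP5, which stabilizes fibers near the chromosomes, read 71.2, 60.5, 66.8 and 78.7 CPM and 101, 111, 115 and 134 CPM, a change of 0.74 (SE 0.11, adjusted p = 5.78e-06). Neither gene's groups overlapped. Relative to its chromosome median DLGAP5 read 1.21. HMMR and ASPM, which hold spindle poles together, rose by 1.09 and 0.79. HMMR had the widest spread of the members in DDX4-null monolayers, at 86.7, 129, 121 and 149 CPM.

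Of the 4 genes that act at anaphase 3 rose, and the median of the 4 was 0.45. PTTG1 (securin), which holds separase inactive, was at 74.9, 52.02, 55.3 and 79.4 CPM in control and 99.995, 125, 94.01 and 116 CPM in DDX4-null monolayers, a change of 0.73 (SE 0.13, adjusted p = 6.46e-05), and its reads can be shared with the copies PTTG2 and PTTG3P. CDC20, the activator that the checkpoint restrains, was at 74.6, 79.4, 80.9 and 73.99 CPM and 99.9, 78.1, 85.9 and 74.2 CPM. Those ranges overlapped, and the change of 0.13 (95% interval -0.09 to 0.35, adjusted p = 0.276) did not pass. UBE2C, the ubiquitin-conjugating enzyme of the anaphase-promoting complex, and ESPL1, the protease separase, each rose, by 0.45 (adjusted p = 0.000152) and 0.45 (adjusted p = 0.00115).

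The 4 cytokinesis genes rose, by 0.59 to 0.68. ANLN, an actin-binding protein of the cleavage furrow, read 51.6, 51.2, 50.7 and 51.9 CPM in control and 77.7, 78.3, 84.2 and 90.03 CPM in DDX4-null monolayers, a change of 0.68 (SE 0.09, adjusted p = 2.2e-06). RACGAP1, part of the centralspindlin complex with KIF23, read 63.4, 53.9, 56.9 and 72.96 CPM and 95.6, 87.9, 87.5 and 99.98 CPM, a change of 0.59 (SE 0.10, adjusted p = 6.19e-05). ECT2, the exchange factor that switches on RhoA at the furrow, and PRC1, which bundles the central spindle, rose by 0.67 and 0.68. ANLN lies on chromosome 7, where the 594 tested genes had a median change of -0.73, and relative to the median of its chromosome ANLN read 1.41, RACGAP1 0.70, ECT2 0.69 and PRC1 0.41.

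TOP2A, the topoisomerase that untangles sister chromatids, and MKI67, the coat protein of mitotic chromosomes used in pathology as the Ki-67 index, were among the largest rises. TOP2A was at 126, 105, 120.04 and 126 CPM in control and 348, 336, 393 and 405 CPM in DDX4-null monolayers. MKI67 was at 74.3, 73.2, 80.5 and 71.5 CPM and 215, 226, 248 and 213 CPM. In neither gene did the groups come close to overlapping. The changes were 1.64 (SE 0.10, adjusted p = 3.2e-11) for TOP2A and 1.59 (SE 0.09, adjusted p = 2.05e-11) for MKI67.

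In the tumors the picture was close to flat, with a small lean to the other side. None of the 43 members rose and 3 fell in DDX4-null against control tumors, where 0.981% and 1.10% of the 12942 genes tested rose and fell. The fallen members were TPX2 and AURKA, which act as a pair at the spindle poles, and KIF4A. Of the 43 members, 39 had a log2 change below 0, against 50.1% of all genes, and the median was -0.21 against -0.0006. The DDX4-null libraries lay wholly below the control libraries in 9 members, against 6.63% of all genes, and 18 members, all lower in DDX4-null tumors, had an unadjusted p under 0.05, against 21.3% of all genes in either direction. The 95% interval of every member stayed within a 2-fold change, from -0.83 to 0.49 over all 43. Without DDX4-null tumor 1, 1 member, TPX2, fell and the median was again -0.21.

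**Figure D3:**
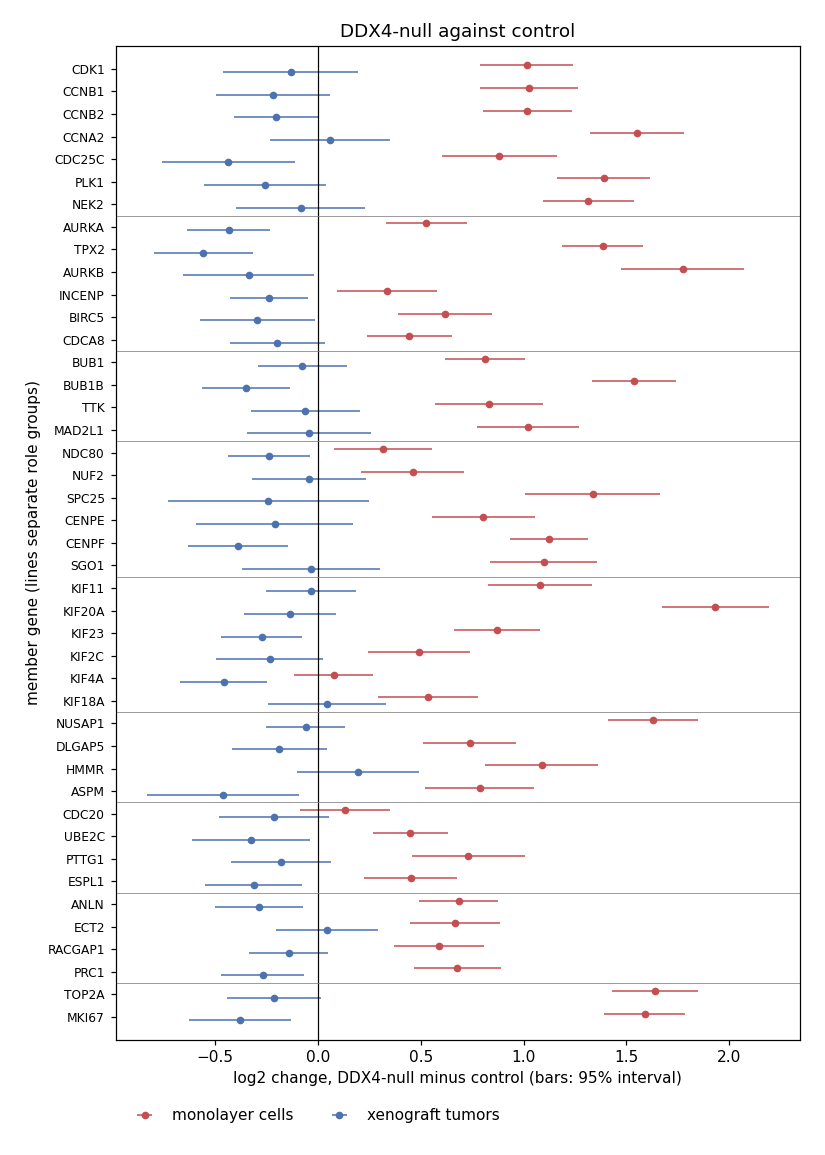
Log2 change from control to DDX4-null (horizontal axis) with its 95% interval for each member (vertical axis, grouped by role), in monolayers and in tumors. Monolayer changes reach from 0.08 to 1.93, and tumor changes from -0.56 to 0.19.

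TPX2 was at 109, 134, 149 and 119 CPM in control and 80.4, 91.97, 77.7 and 96.97 CPM in DDX4-null tumors. AURKA was at 73.2, 84.8, 95.4 and 78.5 CPM and 58.1, 63.7, 59.01 and 64.9 CPM, and KIF4A at 44.7, 51.6, 59.8 and 51.1 CPM and 35.5, 39.3, 35.3 and 40.7 CPM. In each of the 3 genes the highest DDX4-null tumor lay below the lowest control tumor. TPX2 fell by 0.56 (SE 0.11, adjusted p = 0.0329), KIF4A by 0.46 (SE 0.10, adjusted p = 0.0373) and AURKA by 0.44 (SE 0.09, adjusted p = 0.0373) on the log2 scale. These calls were fragile. Over 17 ways of running the test, TPX2 was called in 12 (adjusted p 0.000292 to 0.121), AURKA in 10 (0.00124 to 0.168) and KIF4A in 10 (0.00201 to 0.143). None was called without control tumor 2, control tumor 3, DDX4-null tumor 2 or DDX4-null tumor 3, 1 member was called without DDX4-null tumor 4, and 2 without control tumor 4. DESeq2 called 6 members lower and 0 higher, as did a model of all 16 libraries, by adding BUB1B, CENPF and MKI67.

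TPX2, AURKA and UBE2C lie on chromosome 20, whose 352 tested genes had a median change of -0.19 between the tumors. Relative to that median, TPX2 read -0.37 (adjusted p = 0.114), AURKA -0.25 (adjusted p = 0.168) and UBE2C -0.14 (adjusted p = 0.572). KIF4A, on chromosome X with a median of 0.03, read -0.49 (adjusted p = 0.0386) and was then the 1 member called.

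The other reference genes of the set did not pass in the tumors, and their ranges overlapped except in BUB1B. CDK1 was at 90.3, 82.3, 100.5 and 115 CPM in control and 113, 68.6, 79.98 and 92.6 CPM in DDX4-null tumors, a change of -0.13 (95% interval -0.46 to 0.20, adjusted p = 0.633). CCNB1 was at 83.9, 96.5, 110.4 and 101 CPM and 80.1, 71.1, 78.9 and 107 CPM, a change of -0.22 (95% interval -0.50 to 0.06, adjusted p = 0.337). For PLK1 the levels were 35.7, 55.7, 51.3 and 52.7 CPM and 36.1, 41.7, 38.3 and 47.5 CPM, a change of -0.26 (95% interval -0.56 to 0.04, adjusted p = 0.292). Control tumor 1 was the low library of its group for PLK1 and CCNB1. TOP2A stood at 129.5, 106, 146 and 137 CPM and 119.5, 110.4, 101 and 117 CPM, a change of -0.21 (95% interval -0.44 to 0.02, adjusted p = 0.26). MKI67 stood at 142, 153, 180.3 and 153 CPM and 104, 147, 116 and 116 CPM, a change of -0.38 (95% interval -0.63 to -0.13, adjusted p = 0.102). DDX4-null tumor 2, at the top of its group for MKI67, reached into the control range. BUB1B was at 61.03, 61.2, 69.1 and 71.2 CPM and 44.5, 59.7, 50.7 and 50.9 CPM, without overlap, a change of -0.35 (95% interval -0.57 to -0.14, adjusted p = 0.0895).

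By role, medians in the tumors ran from -0.07 for the checkpoint genes to -0.32 for the Aurora and passenger genes. HMMR, KIF18A, ECT2 and CCNA2 were the 4 members with values above 0, at 0.19, 0.04, 0.04 and 0.06, and none passed. Within a group, the libraries tended to keep their rank from member to member. Control tumor 3 was the highest of its group for 29 members and control tumor 1 the lowest for 29, while DDX4-null tumor 4 was the highest of its group for 27. The summed level of the 43 members was 2307 to 2881 CPM in control tumors and 2049 to 2382 CPM in DDX4-null tumors, so the 2 groups overlapped on the whole.

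**Figure D4:**
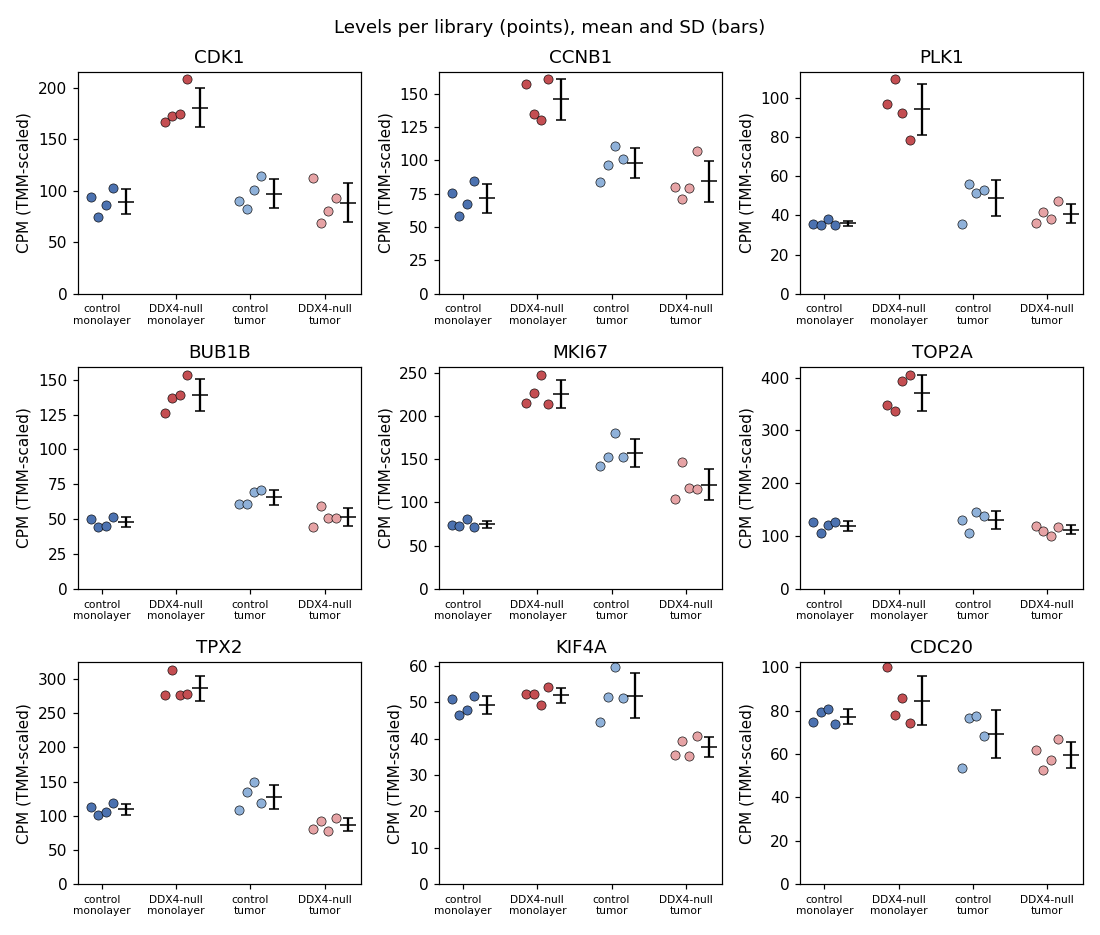
CPM (vertical axis, from 0) of 9 members in the 16 libraries by group (horizontal axis), with a point per library and the group mean and SD as black bars. The DDX4-null monolayers stand above the other groups for CDK1, CCNB1, PLK1, BUB1B, TOP2A, MKI67 and TPX2. The tumor groups overlap except in TPX2, KIF4A and BUB1B, where every DDX4-null tumor lies below every control tumor.

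The difference between both changes from control to DDX4-null, called the genotype effects here, was tested directly, in a model of all 16 libraries. For 42 of the 43 members the change from control to DDX4-null was called more negative in tumors than in monolayers, where 26.8% of the 13603 genes tested were called in that direction and 26.0% in the other. All 43 values were below 0. The median difference was -1.01 for the members and -0.02 for all genes, and without DDX4-null tumor 1 the members gave 42 calls and -0.95. It was -1.15 (SE 0.20, adjusted p = 6.32e-05) for CDK1, -1.25 (SE 0.18, adjusted p = 1.02e-05) for CCNB1 and -1.65 (SE 0.18, adjusted p = 2.43e-07) for PLK1. BUB1B differed by -1.89 (SE 0.14, adjusted p = 9.97e-10), TOP2A by -1.85 (SE 0.14, adjusted p = 3.38e-09) and MKI67 by -1.97 (SE 0.14, adjusted p = 1.01e-09). AURKB and KIF20A had the largest differences, -2.11 and -2.07. CDC20, at -0.34 (SE 0.16, adjusted p = 0.0847), was not called, although its unadjusted p, like that of all 43 members, was under 0.05, which 58.1% of all genes reached. Relative to chromosome medians it was called, at -0.45 (adjusted p = 0.0288). The chromosome medians themselves differed between the settings. Over chromosomes that carry members, they ran from -0.73 (chromosome 7) to 0.26 (chromosome 15) in monolayers. In tumors they ran from -0.19 (chromosome 20) to 0.04 (chromosome 5), with chromosome 7 at 0.01. Whether the DDX4-null cells of the monolayers and of the tumors were alike in other ways was not tested.

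Control tumors against control monolayers show how the mitotic genes of control cells differed between a host and a dish, and here the set did not move as 1 block. Of the 43 members, 22 rose and 4 fell, where 33.9% of the 12858 genes tested rose and 31.0% fell. The median was 0.26, against 0.02 for all genes. The largest rises were in ESPL1 at 1.10, AURKB at 1.08, MKI67 at 1.07, SPC25 at 1.03 and KIF20A at 1.02. Human RNA of a xenograft is mixed with RNA of the host. The sources used here give no removal of host reads, so host reads can be counted on human genes in tumors. The pooled stromal marker sum above moved with this comparison, while its endothelial and pericyte part overlapped. The part of these markers in the comparison was not tested. Scaling by library totals in place of TMM moved the median of all genes to 0.19 and the members to 31 risen and 2 fallen.

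ESPL1 was at 17.9, 18.2, 19.8 and 19.5 CPM in control monolayers and 37.9, 43.5, 40.8 and 39.02 CPM in control tumors, so every tumor was above every monolayer (adjusted p = 1.62e-08). MKI67 rose to 142, 153, 180.3 and 153 CPM in control tumors from the monolayer values given above, a change of 1.07 (SE 0.09, adjusted p = 1.76e-08). CCNB1, PLK1 and BUB1B rose by 0.46 (SE 0.11, adjusted p = 0.00158), 0.45 (SE 0.12, adjusted p = 0.00261) and 0.46 (SE 0.09, adjusted p = 0.000304). Relative to chromosome medians PLK1 read 0.20 (adjusted p = 0.14) and was not called, nor were AURKA, KIF23, DLGAP5 and TTK, while ASPM at 0.35 and UBE2C at -0.32 were. CDK1 and TOP2A did not pass, at 0.12 (SE 0.11, adjusted p = 0.347) and 0.13 (SE 0.10, adjusted p = 0.27). By role, 5 of 6 Aurora and passenger genes rose, 4 of 7 entry genes, 4 of 6 kinesins and 1 of 6 kinetochore genes.

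The 4 members that fell were NDC80, HMMR, PRC1 and TTK. In control tumors NDC80 stood at 30.1, 27.2, 32.97 and 28.4 CPM and HMMR at 44.7, 29.3, 46.3 and 45.7 CPM. PRC1 stood at 60.8, 70.2, 74.1 and 73.95 CPM in tumors against 100.2, 79.7, 86.7 and 106 CPM in monolayers. These 3 genes did not overlap between the groups, with HMMR read from 58.98, 50.1, 55.9 and 63.3 CPM in the monolayers. TTK, at 31.8, 25.7, 27.8 and 32.3 CPM in monolayers and 21.7, 19.1, 27.5 and 26.4 CPM in tumors, overlapped. NDC80 fell by 0.49 (SE 0.10, adjusted p = 0.000582), HMMR by 0.45 (SE 0.13, adjusted p = 0.0051), PRC1 by 0.41 (SE 0.10, adjusted p = 0.00205) and TTK by 0.30 (SE 0.12, adjusted p = 0.0378) on the log2 scale. TTK lost its call under 7 alternatives, among them library totals and leaving out control monolayer 1 or 4 or control tumor 1 or 2, and HMMR under library totals.

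In DDX4-null cells almost every member was lower in tumors than in monolayers. Of 43, 39 fell and 1 rose, where 35.3% of the 13277 genes tested fell and 34.6% rose, with a median of -0.86 against -0.003 for all genes. Without DDX4-null tumor 1, 39 fell and 1 rose, with a median of -0.76. This comparison shares its monolayers and its tumors with the ones above. TOP2A fell by 1.71 (SE 0.11, adjusted p = 1.27e-08), TPX2 by 1.70 and CENPF by 1.61 on the log2 scale. BUB1B fell by 1.41 (SE 0.11, adjusted p = 9.81e-08), PLK1 by 1.18 (SE 0.12, adjusted p = 1.49e-06) and CDK1 by 1.01 (SE 0.14, adjusted p = 2.46e-05). MKI67 fell by 0.89 (SE 0.12, adjusted p = 1.28e-05) and CCNB1 by 0.77 (SE 0.13, adjusted p = 0.000112). At least 2-fold falls were found in 16 members, against 13.9% of all genes, and the tumors lay wholly below the monolayers in 36, against 32.9%.

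ESPL1 alone rose, from 28.6, 27.1, 22.5 and 24.9 CPM in DDX4-null monolayers to 34.1, 27.2, 30.7 and 38.0004 CPM in DDX4-null tumors. The ranges overlapped, and the change of 0.35 (SE 0.12, adjusted p = 0.0216) was not called without DDX4-null monolayer 3 or 4 or DDX4-null tumor 4. INCENP, BIRC5 and CDCA8, the 3 non-kinase passengers, did not pass, at 0.08 (SE 0.09, adjusted p = 0.452), -0.19 (SE 0.11, adjusted p = 0.139) and -0.06 (SE 0.11, adjusted p = 0.616). Their kinase AURKB fell by 1.02 (adjusted p = 2.35e-05). Relative to chromosome medians INCENP read -0.25 (adjusted p = 0.0255) and was called lower, and SPC25 at -0.41 and KIF11 at -0.25 lost their calls.

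**Figure D5:**
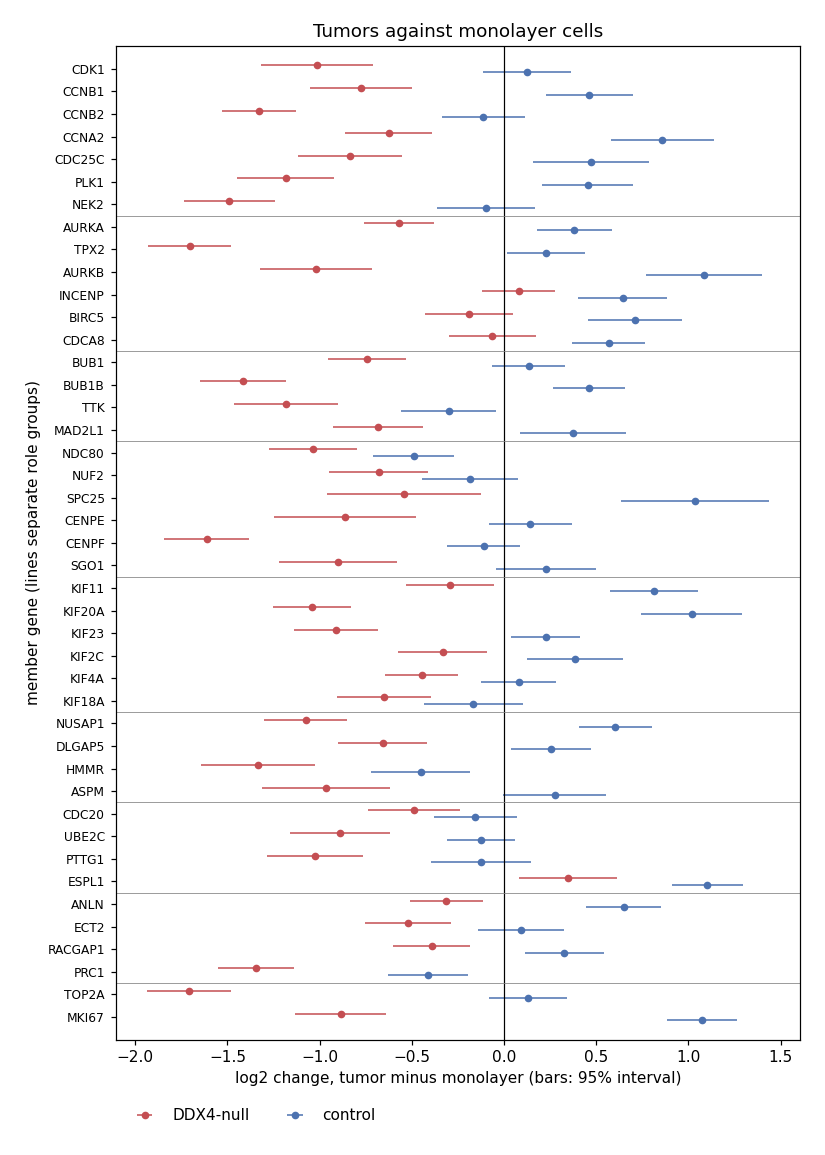
Log2 change from monolayer to tumor (horizontal axis) with its 95% interval for each member (vertical axis, grouped by role), for control and for DDX4-null cells. Control values reach from -0.49 to 1.10 and DDX4-null values from -1.71 to 0.35.

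The order of the group means sorts the members into 7 patterns. In 17 members the order from low to high was control monolayer, DDX4-null tumor, control tumor, DDX4-null monolayer. In 10 members both tumor groups were below the control monolayers, with DDX4-null tumors lowest and DDX4-null monolayers highest. In 8 the DDX4-null tumors were lowest and the control monolayers next. The DDX4-null monolayers were highest in all but 4 members. Neighbors in these orders often did not differ beyond their spread, since 40 members were not called between the tumor groups and 17 not between the control groups.

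Per kilobase of exon length from GENCODE v29, the members spanned a wide range of levels. UBE2C was the highest member in all 4 groups, at 83.3 CPM per kb in control monolayers, 114 in DDX4-null monolayers, 76.04 in control tumors and 60.7 in DDX4-null tumors. SPC25 was lowest in control monolayers at 1.31 CPM per kb, ESPL1 in DDX4-null monolayers at 2.90, and ASPM in both tumor groups at 2.26 and 1.63. The median member was at 9.78, 17.0, 11.4 and 9.66 CPM per kb in the same order of groups. Within groups, the median coefficient of variation of the members was 9.64% in control monolayers, 9.65% in DDX4-null monolayers, 13.0% in control tumors and 11.1% in DDX4-null tumors, with CENPE in DDX4-null tumors the widest at 28.6%.

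The members with and without each promoter element had overlapping ranges of response. In monolayers the 26 members with TTTGAA had a median log2 change of 0.83 and the 11 without it 1.03. Of those without it, CCNB1, CENPE, KIF20A, KIF2C and PTTG1 carry TTTAAA, so this split does not separate members with and without a CHR. The 30 members with CCAAT had a median of 1.02 and the 7 without it 0.68. These are descriptions with no test, and KIF20A, which has no TTTGAA but TTTAAA, and KIF4A, which has TTTGAA, were the extremes of the set. Relative to chromosome medians KIF4A read 0.54, and CDC20, which also has TTTGAA, was the smallest at 0.24.

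Beyond the 43 members, 169 further genes of the mitotic and cell cycle machinery were followed in 11 lists. Of the 168 tested in monolayers, 102 rose and 20 fell in DDX4-null cells, against the 35.0% and 32.3% of all genes given above, with a median of 0.45. FOXM1, a transcription factor of G2 and M genes, was at 67.1, 63.6, 67.3 and 60.9 CPM in control and 147, 157, 140.3 and 133 CPM in DDX4-null monolayers, a change of 1.16 (SE 0.09, adjusted p = 1.95e-09). MYBL2, which binds CHR promoters with the MuvB core, rose by 1.08, and E2F8 and E2F2, of the E2F family, by 2.10 and 1.62. Of the MuvB subunits, LIN37, LIN52 and RBBP4 fell by 0.78, 0.52 and 0.45 on the log2 scale. Relative to its chromosome median LIN52 read -0.05 (adjusted p = 0.724) and was not called. CDKN1A (p21), an inhibitor of cyclin-dependent kinases, was at 71.03, 67.6, 67.5 and 80.1 CPM and 40.2, 41.3, 31.1 and 34.99 CPM and fell by 0.96 (SE 0.11, adjusted p = 2.24e-07), while CDKN1C (p57), of the same family, rose by 1.29 and the cyclin CCNE2 by 1.57.

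Of 33 other kinetochore genes, 23 rose and none fell, led by SKA3 at 1.90, CENPU at 1.88 and OIP5 at 1.61. Among 7 other kinesins 6 rose, with KIF18B at 1.60, KIFC1 at 0.89 and KIF15 at 0.86, and KIF3B fell by 0.46. Of 16 other entry genes 12 rose, with CDCA3 at 1.59, PIMREG at 1.38 and CKS2 at 1.37, and WEE1, the kinase that holds CDK1 off, fell by 0.49. Condensin, which compacts chromosomes, had 5 of 8 genes rise and 1 fall: NCAPG 1.60, NCAPD2 1.42 and NCAPH 1.34 rose and NCAPG2 fell by 0.32. Of 21 centrosome and spindle genes tested 14 rose and 4 fell, with CKAP2 at 1.31, CENPJ at 1.02 and CKAP2L at 0.99 and with CEP152, HAUS4 and CEP192 down by 0.50, 0.48 and 0.34. Other cytokinesis genes had 6 of 11 rise, with CEP55 at 1.06, DEPDC1B at 0.67 and ARHGAP11A at 0.62, and SEPTIN7 down by 0.25.

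Of 17 genes of the anaphase-promoting complex and its regulators, 4 rose and 5 fell, which is below the 35.0% and 32.3% of all genes. FBXO5, an inhibitor of that complex, rose by 1.01, ANAPC15 by 0.87 and CDC27 by 0.87, while ANAPC5, CDC26 and ANAPC16 fell by 0.65, 0.59 and 0.49. Of 11 cohesin genes, 6 rose and 2 fell, with RAD21 at 0.93, SMC3 at 0.70 and PDS5B at 0.57, and with STAG2 and WAPL down by 0.75 and 0.49. Of 7 other checkpoint genes 4 rose, with TRIP13 at 0.57, CHEK1 at 0.48 and BUB3 at 0.45, and none fell. Taken relative to the chromosome medians, NCAPG2, CEP192 and SEPTIN7 turned to 0.40, 0.04 and 0.48. HAUS4 and WEE1 lost their calls in the same way, at -0.008 (adjusted p = 0.963) and -0.22 (adjusted p = 0.121).

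CCND2, a D-type cyclin that releases cells from G1, differed most of all. It had 3 counts in control monolayer 1 and 0 in the other control monolayers, and stood at 108, 118, 90.5 and 106 CPM in DDX4-null monolayers. The ratio of scaled counts was 2202, with a 95% counting interval of 753 to 10679 that leaves out the spread between libraries. In DDX4-null tumors CCND2 was at only 2.69, 3.15, 1.72 and 1.31 CPM, against 0.836, 0.294, 0.775 and 0.554 CPM in control tumors.

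In the tumors 2 of these 168 genes rose and 6 fell, against 0.981% and 1.10% of all genes, with a median of -0.11. MYBL2 was at 47.03, 64.7, 63.1 and 65.8 CPM in control and 34.2, 32.3, 28.5 and 33.5 CPM in DDX4-null tumors, without overlap. It fell by 0.91 (SE 0.11, adjusted p = 0.00439), and it was the 1 gene of the 8 whose call was kept in all 17 ways of running the test. E2F1, a G1 to S factor, fell by 0.69 (adjusted p = 0.0208), RBL1 (p107), a pocket protein of the DREAM type, by 0.61 (adjusted p = 0.0155), and KIF3B by 0.49 (adjusted p = 0.0145). NCAPH and the complex subunit ANAPC1 fell by 0.41 (adjusted p = 0.049) and 0.39 (adjusted p = 0.0439). CDC25B, a phosphatase of early mitotic entry, rose by 0.47 (adjusted p = 0.0373) and CCND2 by 1.83 (adjusted p = 0.0341). Without DDX4-null tumor 1, NCAPH and ANAPC1 were not called, and the other 6 were. FOXM1, at -0.35 (SE 0.13, adjusted p = 0.154), was not called. MYBL2, E2F1, RBL1 and KIF3B lie on chromosome 20, as TPX2 and AURKA do, and relative to its median they read -0.72, -0.50, -0.42 and -0.30, with MYBL2 the only one of these 4 still called. Between the control groups 87 of 167 tested genes rose and 32 fell, against 33.9% and 31.0% of all genes. In DDX4-null cells 29 of 168 rose from monolayer to tumor and 84 fell, against 34.6% and 35.3%. In the test of the difference between both genotype effects, 95 of 168 were called more negative in tumors and 13 more positive, against 26.8% and 26.0%.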

How the data were processed

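RNA-seq was available for 16 libraries of PC3 cells and xenograft tumors, with 4 libraries per group. The authors deposited 1 table of unnormalized counts for 20356 Ensembl genes. RNA was DNase-treated and the kit was TruSeq Stranded mRNA, per the labels' protocols. Trimmomatic 0.39, STAR 2.7.10a, featureCounts 2.0.3 and GRCh37 are named per the submitters' processing notes. Not given in the sources used here were the annotation, the strand setting and host read removal. Symbols matched 19446 IDs and all 43 members. Chromosomes and exon lengths came from GENCODE v29 by Ensembl ID, and promoters from RefSeq (GRCh38.p14).

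Libraries held 12204254 to 25443952 counts. Up to 3 counts are allowed by a count of 0, or 0.111 to 0.260 scaled CPM per library, and such floors and the counting interval cover counting error only. Each comparison was fitted on its own 8 libraries, and the difference between genotype effects on all 16, by edgeR 4.0.16 under R 4.3.3 (quasi-likelihood F test, TMM scaling, filterByExpr, Benjamini-Hochberg adjustment over all genes tested, threshold 0.05). Log2 changes carry their standard error (SE) from that fit. For DDX4, log2(CPM + 0.5) was compared by exact permutation, two-sided.

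The members, role groups, lists and tests were chosen with earlier results of these data known. All members are named. Full values were given for the largest and smallest monolayer change of each role group, for members called in tumors, for members that changed against the majority of called members, and for CDK1, CCNB1, MKI67, TOP2A, PLK1 and BUB1B. Of each further list, up to 3 rises and 3 falls called in monolayers at a mean of at least 1 CPM were named, and every gene called in tumors. The monolayer value of MYBL2 was outside this rule and was chosen after it was seen. The steps were tested on simulated counts. Alternatives were RLE size factors, library totals, DESeq2 1.42.0, no filter, a mean of at least 5 CPM, all 16 libraries, a replicate block, a 2-fold threshold, changes relative to the chromosome median, and leaving out each library.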

Additional observations from a re-analysis of the deposited data

Results flagged for a closer look

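In 172 groups of 4 libraries, 9 held a library whose gap to the nearest other, as a share of the range of the group, was above Dixon's 95% critical value for 4 values, and chance gives about 1 in 20, or 8.6 here. Low libraries were DDX4-null monolayer 1 for CCNA2 at 34.2 CPM, control monolayer 2 for NEK2 at 13.3 CPM and control tumor 2 for HMMR at 29.3 CPM. High libraries in monolayers were control monolayer 3 for PLK1 at 37.9 CPM, DDX4-null monolayer 2 for TPX2 at 313 CPM and DDX4-null monolayer 3 for INCENP at 45.2 CPM. High libraries in tumors were DDX4-null tumor 4 for CCNA2 at 28.7 CPM and for SPC25 at 5.70 CPM, and control tumor 3 for CENPF at 131 CPM.

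The change from control to DDX4-null differed between monolayers and tumors in the test of the difference itself. It was called more negative in tumors for 42 of the 43 members. The chromosome medians given above also differed between the settings, and their part was not tested. On the log2 scale the difference was -2.11 for AURKB, -2.07 for KIF20A, -1.97 for MKI67, -1.89 for BUB1B, -1.85 for TOP2A, -1.65 for PLK1, -1.25 for CCNB1 and -1.15 for CDK1.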

How the results depend on the processing

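The monolayer rises, the falls from DDX4-null monolayers to tumors and the differences between genotype effects kept their direction in every alternative run for the members, except INCENP, not called between DDX4-null settings. Leaving out each library gave 40 to 41 risen members in monolayers (median 0.77 to 0.89) and 0 to 3 fallen in tumors (median -0.26 to -0.16). It gave 19 to 23 risen and 3 to 4 fallen between control settings (median 0.20 to 0.30), 36 to 39 fallen and 0 to 1 risen between DDX4-null settings (median -0.89 to -0.76), and 41 to 43 for the difference (median -1.11 to -0.94). Tested against a 2-fold change, 11 members rose in monolayers, 0 fell in tumors, 0 rose and 0 fell between control settings, 8 fell and 0 rose between DDX4-null settings, and 12 differed. In tumors 6 members fell with DESeq2 and with all 16 libraries and 1 relative to chromosome medians, and over all genes DESeq2 called 481 rises and 399 falls against 127 and 143. With library totals 31 members rose and 2 fell between control settings (median 0.42), and the share of calls that were higher went from 52.2% to 66.0% there, from 47.0% to 36.6% in tumors and from 49.2% to 38.2% for the difference.

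Values near 0 changed sign. With library totals these were, in tumors, CCNA2 at -0.0066, KIF18A at -0.021 and ECT2 at -0.023, and, between control settings, CCNB2 at 0.056, NEK2 at 0.070, CENPF at 0.058, CDC20 at 0.0098, UBE2C at 0.041 and PTTG1 at 0.050. Relative to chromosome medians, TOP2A was at -0.069 between control settings, INCENP at -0.25 (adjusted p = 0.0255) between DDX4-null settings, and NCAPG2, CEP192 and SEPTIN7 at 0.40, 0.039 and 0.48 in monolayers. Leaving out 1 library turned, in tumors, CCNA2 (-0.030 to 0.15), NEK2 (-0.17 to 0.0019), TTK (-0.15 to 0.014), MAD2L1 (-0.13 to 0.10), NUF2 (-0.14 to 0.031), SGO1 (-0.13 to 0.055), KIF11 (-0.088 to 0.032), KIF18A (-0.029 to 0.11) and ECT2 (-0.037 to 0.16), and, between control settings, ECT2 (-0.032 to 0.17). The cause was not tested.

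Apart from the 2-fold threshold, calls were lost under at least 1 alternative by 2 members in monolayers, 3 in tumors, 8 between control settings, 4 between DDX4-null settings and 1 for the difference. Of 49 further genes named in monolayers 43 kept call and direction, and of 8 named in tumors 1 did.

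Replicate numbers gave no clear pairing of the libraries. Deviations of same-numbered libraries correlated at -0.229 to 0.393 in monolayers, -0.0584 to 0.198 in tumors, -0.0487 to 0.123 between control settings and -0.0497 to 0.164 between DDX4-null settings, and 3, 2, 4 and 5 of 8 libraries correlated best with their own number. With the replicate block, 41 members rose in monolayers, 3 fell in tumors, 21 rose and 4 fell between control settings, 39 fell and 1 rose between DDX4-null settings, and 42 differed. Over all genes in tumors the block called 258 rises and 167 falls, against 127 and 143 without it.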
